A study of Mus musculus with 6 samples.

Results

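Interferon-stimulated genes are the antiviral and immune genes that cells switch on when an interferon binds its receptor. A list of 41 such mouse genes was looked up by symbol in the deposited table of 25416 genes, and 40 of them had a row. The expression of Cmpk2 was not analysed here, and only its promoter window is counted below. Of the 40 genes, 18 had at least 0.5 FPKM (reads scaled by exon length and by the total of the library) in 3 or more of the 6 libraries and could be tested, and 22 lay under this filter and are described by their reads. The members were chosen with earlier results of these data known.

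The cells were AML12, a line of mouse hepatocytes derived from an animal with a human TGF alpha transgene, so that both groups share this background. The siNC group (n = 3) was transfected with scrambled RNA and the siSetdb1 group (n = 3) with siRNA against Setdb1, which encodes a methyltransferase for lysine 9 of histone H3. Both groups received RNA at 50 nm, as the labels write it, and 72 h of transfection, so that both had been exposed to a foreign RNA and a transfection reagent. Separate cultures for the 3 libraries of a group are not stated, and p-values then reflect the spread of these samples alone, which may be technical.

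In the pathway, type I interferons bind the receptor pair IFNAR1 and IFNAR2, the kinases JAK1 and TYK2 then phosphorylate STAT proteins, and STAT2 joins IRF9 in a complex that binds the interferon-stimulated response element (ISRE) of target promoters. Hepatocytes are known to respond to type I interferon. In several other cell types loss of SETDB1 is known to release retroelement transcripts that nucleic acid sensors can take for viral RNA or DNA. The comparison therefore bears on whether these genes differ when Setdb1 mRNA is lower.

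The libraries held 16790582 to 17835060 reads. Setdb1 (chromosome 3, 95323525 to 95357202, mm10) had 8.41, 8.54 and 9.43 FPKM in siNC and 4.29, 4.21 and 3.29 FPKM in siSetdb1 (limma, adjusted p = 0.00183), in the direction of the labels. siNC replicate 1 stood apart from the other siNC libraries on the first principal component, which also separates the groups (-26.7 against -11.7 and -10.8). It did so on the second component too (15.0 against -10.7 and -14.0). On the second, siSetdb1 replicate 3 lay at 9.75 against -0.372 and 0.401 for the other siSetdb1 libraries. Of 12 hepatocyte markers with a row, Krt18, Krt8 and Hnf4a had group means of 29.8 to 2012 FPKM, Alb had means of 7.93 and 2.61 FPKM, and Asgr1 and Cps1 had means of at most 0.0358 FPKM; Trf and Ttr fell and Krt18 rose. Of 10 leukocyte markers with a row, Cd14 and Cd68 made up most of the summed level. This level was 52.0 to 61.8 FPKM in siNC and 38.4 to 45.0 FPKM in siSetdb1. Both genes were called lower in siSetdb1 (limma, adjusted p = 0.0467 for Cd14 and 0.012 for Cd68). Ptprc, the pan-leukocyte marker, had means of 0.00635 and 0.00942 FPKM. Of 6 markers of plasmacytoid dendritic cells, a main source of type I interferon, Siglech had means of 0 and 0.00552 FPKM. On the same list, Ccr9, Irf8 and Ly6d had means of at most 0.183 FPKM. Tcf4 had means of 1.43 FPKM in siNC and 1.45 FPKM in siSetdb1. Bst2, which is also among the interferon-stimulated genes, had means of 59.3 and 46.7 FPKM. The part of these marker differences in the results was not tested.

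Of the 40 interferon-stimulated genes with a row, 22 lay under 0.5 FPKM in most libraries, and most of the few calls among the others were lower in siSetdb1. Among the 18 members tested, 1 gene rose (5.56%), 4 genes fell (22.2%) and 13 did not pass the test, where 6.87% of all 12846 genes tested rose and 8.27% fell, 15.1% in all. Oasl1 rose, and Ifit2, Lgals3bp, Bst2 and Ifi27l2a fell. Ifi27l2a met the filter mainly through the siNC group, where it is higher, and this favours a fall. The test was limma-trend on log2(FPKM + 1) with Benjamini-Hochberg adjustment over all genes tested and a threshold of 0.05, and log2 fold changes are on this scale, siSetdb1 over siNC. The median log2 fold change of the 18 members was -0.03, beside -0.018 for all genes tested, with 9 members above 0 and 9 below. The groups did not overlap for 2 members higher in siSetdb1 and 6 lower, where 39.2% of all genes tested had groups that did not overlap, 17.6% higher and 21.6% lower. With 5 calls in all, nothing particular to interferon-stimulated genes is read from these shares.

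**Figure D1:**
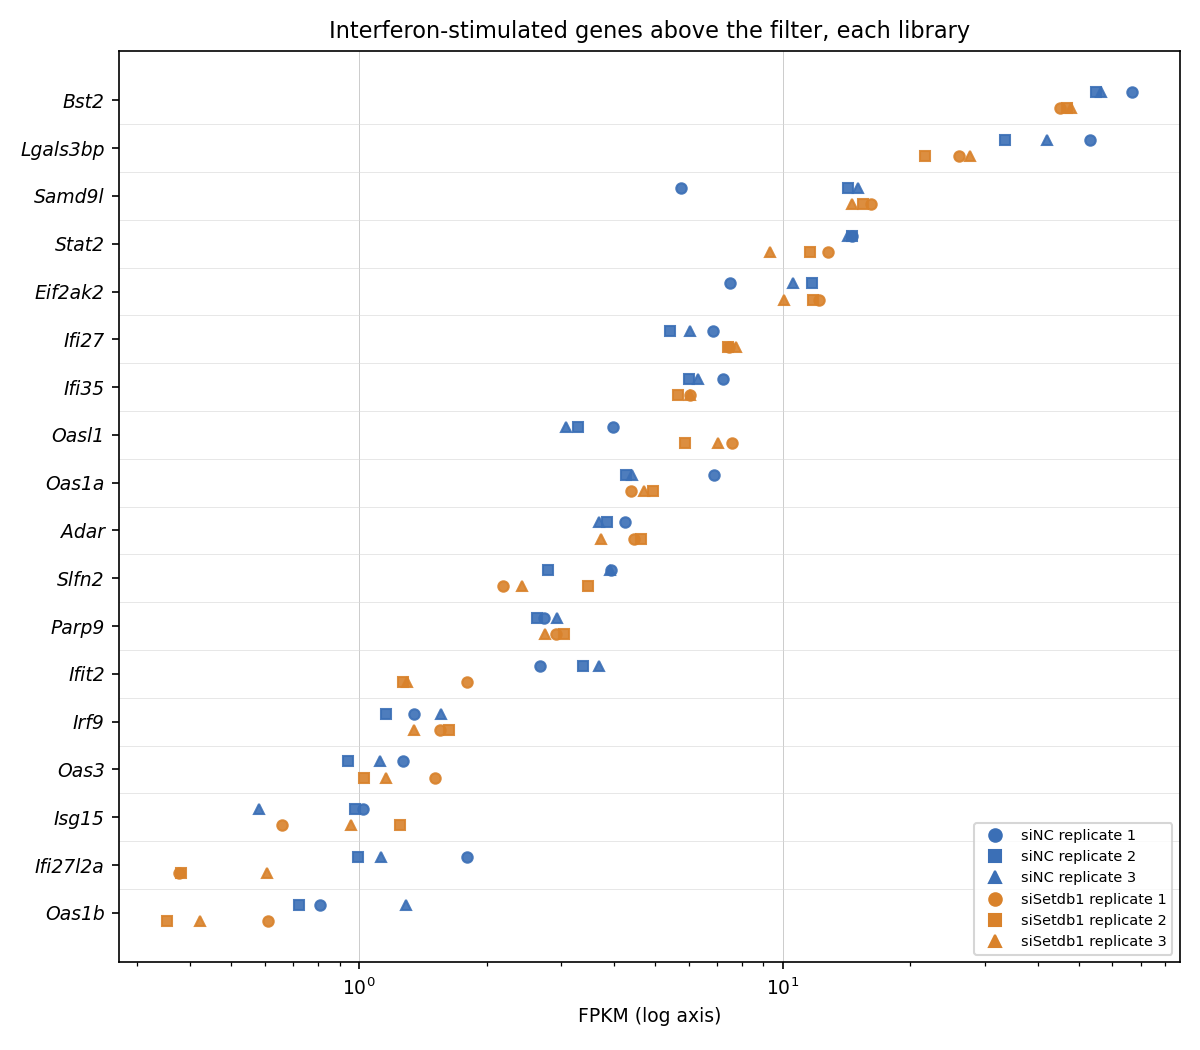
FPKM (log axis) of the 18 members above the filter in each of the 6 libraries; blue points are siNC, orange points siSetdb1, and the shape gives the replicate number. Bst2 was the most abundant at 45.2 to 66.6 FPKM, all 3 siSetdb1 values of Oasl1 lay above the siNC values, and Samd9l was low in siNC replicate 1 alone.

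Ifit2 (ENSMUSG00000045932, chromosome 19, 34550694 to 34576419, plus strand) encodes a protein of tetratricopeptide repeats that restrains viral RNA translation. It had 2.67, 3.37 and 3.69 FPKM in siNC (176, 230 and 249 reads) and 1.80, 1.27 and 1.30 FPKM in siSetdb1 (122, 85 and 91 reads). Every siSetdb1 library lay below every siNC library. The mean fell by 55.1%, from 3.24 ± 0.52 to 1.46 ± 0.30 FPKM (SD, n = 3). The log2 fold change was -0.79 (SE 0.13, 95% interval -1.08 to -0.49, adjusted p = 0.00861, limma). The call held without any 1 library, with a highest adjusted p of 0.0428.

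Its neighbours on chromosome 19 are paralogs of the same family, and all had few reads. Ifit1 (34640871 to 34650009), which encodes a reader of RNA caps, had 20, 12 and 29 reads in siNC against 11, 11 and 12 in siSetdb1, which meet at 12 reads, and its log2 fold change by limma-voom on reads was -0.75 (adjusted p = 0.195). Ifit3 (34583531 to 34588731) had 4, 9 and 10 reads against 2, 1 and 5. Ifit3b (34607970 to 34613401), its near copy, had 7, 12 and 11 reads against 1, 0 and 0. For Ifit3b the summed 30 reads of siNC over 1 read of siSetdb1 gave a ratio of 30.5 per library total, with a 95% counting interval of 5.07 to 1243 that covers counting error only. Of all stretches of 50 bases, the read length, in the transcripts of Ifit3, 51.2% also occur in Ifit3b, so how their reads were split is uncertain. Added up, the pair had 11, 21 and 21 reads in siNC against 3, 1 and 5 in siSetdb1, and these groups did not overlap.

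The upstream stretches printed here show where the ISRE core lies in genes of this family, beside Bst2, which fell and holds the core, and Isg15, which holds it and was not called. They are the 200 bases before the RefSeq start site (GRCm38.p6, the assembly of mm10), 5′ to 3′ on the strand of the gene, with matches to the ISRE core in capitals. The core is GAAA, any 2 bases and GAAA, or TTTC, any 2 bases and TTTC where it lies on the opposite strand, and matches may overlap. Bst2 was chosen by the rule for promoters, and the other 4 after their values were seen.
Bst2, chr8:71537473-71537672, minus strand: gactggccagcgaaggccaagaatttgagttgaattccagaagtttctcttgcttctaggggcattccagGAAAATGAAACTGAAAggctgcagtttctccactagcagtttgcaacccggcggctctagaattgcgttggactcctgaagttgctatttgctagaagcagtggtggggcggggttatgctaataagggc
Ifit3, chr19:34583329-34583528, plus strand: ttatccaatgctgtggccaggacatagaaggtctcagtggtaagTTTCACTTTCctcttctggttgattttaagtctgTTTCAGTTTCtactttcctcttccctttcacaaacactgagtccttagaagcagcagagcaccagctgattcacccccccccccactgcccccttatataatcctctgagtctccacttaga
Ifit3b, chr19:34607757-34607956, plus strand: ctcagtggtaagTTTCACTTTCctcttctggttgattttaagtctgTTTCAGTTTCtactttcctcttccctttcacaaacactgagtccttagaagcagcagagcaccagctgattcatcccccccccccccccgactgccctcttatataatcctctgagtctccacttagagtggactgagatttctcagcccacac
Ifit1, chr19:34640689-34640888, plus strand: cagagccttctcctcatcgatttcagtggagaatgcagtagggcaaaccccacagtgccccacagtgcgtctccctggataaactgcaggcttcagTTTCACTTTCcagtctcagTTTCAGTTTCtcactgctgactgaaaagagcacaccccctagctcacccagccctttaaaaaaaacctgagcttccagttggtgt
Isg15, chr4:156200819-156201018, minus strand: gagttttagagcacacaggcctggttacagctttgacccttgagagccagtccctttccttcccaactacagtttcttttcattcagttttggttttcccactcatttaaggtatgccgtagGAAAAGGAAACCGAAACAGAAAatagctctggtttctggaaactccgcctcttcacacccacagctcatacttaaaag

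The core was frequent upstream of the members. RefSeq windows of 250 bases before to 50 after a start site matched 29 of the 41 genes by symbol, and 14 of these 29 (48.3%) held the core, beside 3.98% of the 26994 genes with a window. Mx1, Mx2, Oas1b, Oas2, Ifi27, Ifi27l2a, Usp18, Zbp1, Parp9, Parp14, Rtp4 and Dhx58 had no window. Ifit3 and Ifit3b hold 2 matches each, the first starting 156 and 188 bases upstream of it, Ifit1 holds 2 from 104 and 85 bases before it, Bst2 holds 2 that overlap, and Isg15 holds 3 that overlap. The gamma-activated site TTCNNNGAA, a palindrome, was in the windows of 6 of the 29 genes (20.7%), beside 9.55% of all genes. Calls were made with and without the core: of 6 tested members with it, Bst2 fell and 5 were not called, and of 8 tested members whose window lacks these letters, Oasl1 rose, Ifit2 and Lgals3bp fell and 5 were not called. Both sets had a median log2 fold change of -0.01. A match is a description of letters, and a missing match says only that the letters are not in this window.

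Oasl1 (ENSMUSG00000041827, chromosome 5, 114923240 to 114937915, plus strand) was the only tested member that rose. Its product lacks the synthetase activity of the 2′-5′ oligoadenylate family and is known in mouse to hold back translation of the mRNA of IRF7. It had 3.97, 3.28 and 3.08 FPKM in siNC (174, 149 and 138 reads) and 7.59, 5.88 and 7.03 FPKM in siSetdb1 (342, 262 and 327 reads). The groups did not overlap. The mean went from 3.45 ± 0.47 to 6.84 ± 0.87 FPKM, a rise of 98.4%. The log2 fold change was 0.82 (SE 0.11, 95% interval 0.56 to 1.08, adjusted p = 0.00515, limma). This call also held without any 1 library (highest adjusted p 0.0264).

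Among the listed members, no other tested gene of the 2′-5′ oligoadenylate synthetase family was called. Several genes of this family make the messenger that activates RNase L. Oas1c, a gene of this family outside the members and described below, was called lower (log2 fold change -0.93, adjusted p = 0.00228, limma). Oas1a had 6.89, 4.27 and 4.42 FPKM in siNC and 4.39, 4.94 and 4.70 FPKM in siSetdb1, so that siNC replicate 1 was the highest and the rest overlapped (adjusted p = 0.688). Its log2 fold change was -0.10 with all libraries and 0.09 without siNC replicate 1. Oas1a shares 57.6% of its 50-base stretches with Oas1g, and the pair summed to 233, 147 and 156 reads in siNC against 154, 168 and 166 in siSetdb1. Oas3 had 116 to 184 reads in each library (log2 fold change 0.08, 95% interval -0.19 to 0.34), and Oasl2 and Oas2 had at most 14 and 5 reads. Oas1b had 0.807, 0.721 and 1.29 FPKM in siNC and 0.610, 0.353 and 0.422 FPKM in siSetdb1. These did not overlap, but the log2 fold change of -0.40 did not pass the test (adjusted p = 0.0880, limma).

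**Figure D2:**
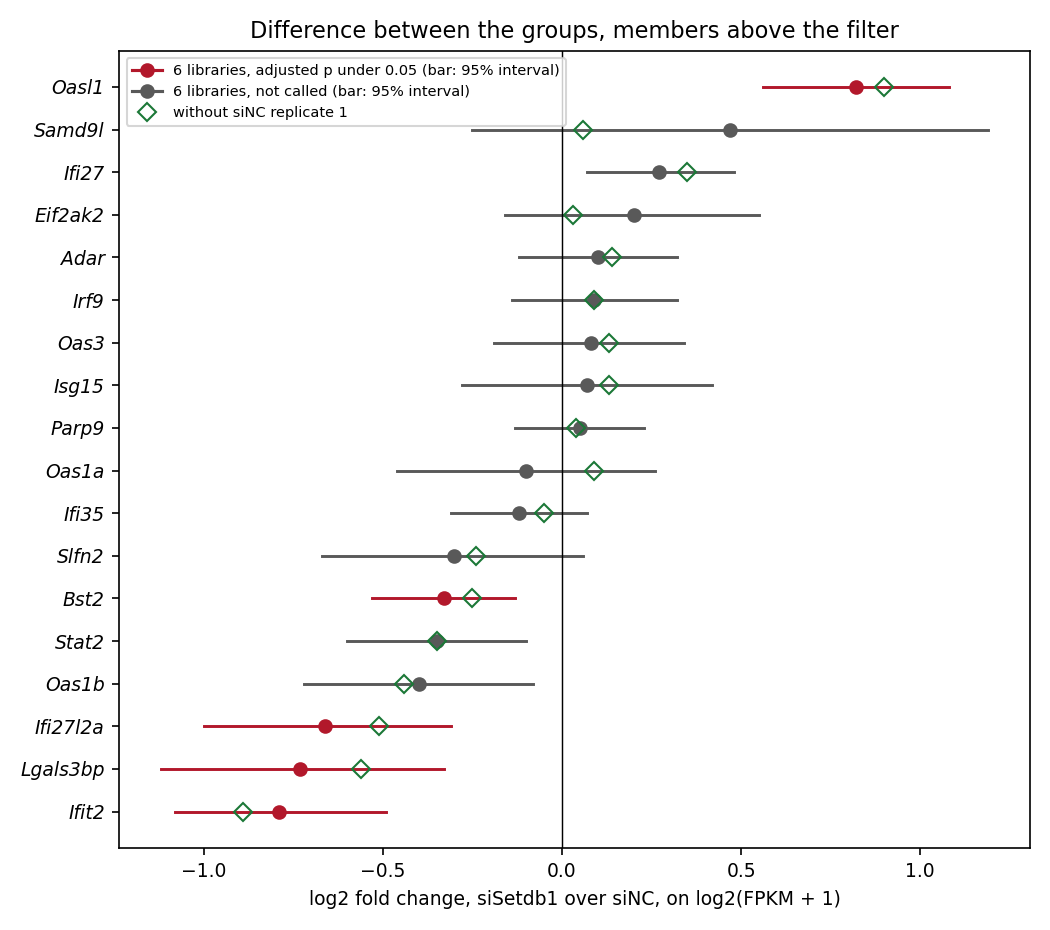
Log2 fold change of siSetdb1 over siNC on log2(FPKM + 1) for the 18 members above the filter; circles are the fit of 6 libraries with a bar for the 95% interval, red where the adjusted p is under 0.05, and open diamonds the fit without siNC replicate 1. Oasl1 lies at 0.82 and Ifit2 at -0.79, and Samd9l moves from 0.47 to 0.06 without siNC replicate 1.

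Bst2 (ENSMUSG00000046718, chromosome 8, 71534255 to 71537456, minus strand) encodes tetherin, which holds budding virus particles at the cell surface, and it was the most abundant member. It had 66.6, 54.9 and 56.5 FPKM in siNC (1010, 863 and 876 reads) and 45.2, 47.0 and 47.9 FPKM in siSetdb1 (705, 725 and 771 reads). The groups did not overlap, and the mean fell by 21.3%, from 59.3 ± 6.4 to 46.7 ± 1.4 FPKM. The log2 fold change was -0.33 with an SE of 0.09 (limma, adjusted p = 0.0394). The call held without siNC replicate 1 but not without siNC replicate 2 or 3 (adjusted p = 0.0549 and 0.0577) or siSetdb1 replicate 1, 2 or 3 (0.140, 0.116 and 0.0891), nor without the filter on low values (0.0993). Bst2 is also on the list of plasmacytoid dendritic cell markers, whose summed level of 46.8 to 67.9 FPKM it makes up almost alone.

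Lgals3bp (ENSMUSG00000033880, chromosome 11, 118392751 to 118402092, minus strand) encodes a secreted glycoprotein that binds galectin-3. It had 53.0, 33.4 and 42.1 FPKM in siNC (2534, 1654 and 2060 reads) and 26.1, 21.7 and 27.7 FPKM in siSetdb1 (1286, 1057 and 1407 reads). All siSetdb1 values lay below the lowest siNC value, and the mean fell by 41.2%, from 42.8 ± 9.8 to 25.2 ± 3.1 FPKM. The log2 fold change was -0.73 with an SE of 0.17 (limma, adjusted p = 0.0303). Leaving out siNC replicate 3 raised the adjusted p to 0.0690, and leaving out siSetdb1 replicate 1, 2 or 3 raised it to 0.0901, 0.104 or 0.0588. Without the filter on low values it was 0.0864.

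Ifi27l2a and Ifi27, small mitochondrial or membrane proteins of the same family, are neighbours on chromosome 12 and lay on opposite sides of 0. Ifi27l2a (103442167 to 103443680) had 1.80, 0.993 and 1.13 FPKM in siNC and 0.375, 0.380 and 0.606 FPKM in siSetdb1, from 14, 8 and 9 reads against 3, 3 and 5 reads. The mean fell by 65.4% (log2 fold change -0.66, SE 0.15, adjusted p = 0.0267, limma). It passed the filter in all 3 siNC libraries and in 1 siSetdb1 library, so that passing the filter itself favours a fall. Leaving out siSetdb1 replicate 1 or 2 raised the adjusted p to 0.0972 or 0.0929, limma-voom on reads gave 0.0501, and the fit without the filter gave 0.0751. Ifi27 (103434211 to 103440239) had 6.86, 5.41 and 6.03 FPKM in siNC and 7.46, 7.43 and 7.76 FPKM in siSetdb1. These did not overlap, but the log2 fold change of 0.27 did not pass the test (95% interval 0.07 to 0.48, adjusted p = 0.0767), and it did without siNC replicate 1 (0.35, adjusted p = 0.0185).

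Stat2 and Irf9, of the complex that drives these genes, were unequal in abundance. Stat2 had 14.6, 14.6 and 14.3 FPKM in siNC and 12.8, 11.6 and 9.31 FPKM in siSetdb1, without overlap. The log2 fold change of -0.35 (95% interval -0.60 to -0.10) had an adjusted p of 0.0652 by limma-trend and 0.0377 by limma-voom on the same genes. Irf9 had 1.16 to 1.63 FPKM over the 6 libraries (log2 fold change 0.09, 95% interval -0.14 to 0.32). Irf7, the factor that amplifies interferon output, had 18 to 30 reads in each library.

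Among sensors and effectors of double-stranded RNA, 2 of the more abundant members were low in siNC replicate 1 alone. Samd9l, a cytosolic factor that restricts poxviruses and cell growth, had 5.77, 14.3 and 15.1 FPKM in siNC and 16.2, 15.5 and 14.6 FPKM in siSetdb1. Its log2 fold change of 0.47 (95% interval -0.25 to 1.19) became 0.06 without siNC replicate 1. Eif2ak2, the gene of the kinase PKR, had 7.50, 11.7 and 10.6 FPKM against 12.2, 11.8 and 10.1 FPKM, and its value of 0.20 became 0.03 without that library. For both genes the other 5 libraries overlapped. Adar, which edits adenosines in double-stranded RNA, had 4.25, 3.84 and 3.68 FPKM in siNC and 4.46, 4.64 and 3.73 FPKM in siSetdb1 (log2 fold change 0.10, 95% interval -0.12 to 0.32). A part of its sequence, 14.4% of its 50-base stretches, is shared with Chrnb2.

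The remaining abundant members also overlapped between the groups. Ifi35, a small interferon-induced leucine zipper protein, had 7.24, 6.02 and 6.30 FPKM in siNC and 6.03, 5.66 and 6.04 FPKM in siSetdb1 (log2 fold change -0.12, 95% interval -0.31 to 0.07). Parp9, a partner of the ubiquitin ligase DTX3L, had 2.74, 2.63 and 2.94 FPKM against 2.91, 3.04 and 2.75 FPKM (0.05, 95% interval -0.13 to 0.23). Slfn2, a schlafen that keeps T cells and monocytes quiescent, had 3.94, 2.80 and 3.92 FPKM against 2.19, 3.48 and 2.43 FPKM (-0.30, 95% interval -0.67 to 0.06). Isg15, the ubiquitin-like modifier that is among the most induced genes of the response, was at 0.580 to 1.25 FPKM from 7 to 15 reads, with both the lowest and the second highest value in siNC (0.07, 95% interval -0.28 to 0.42). By limma-voom on reads the log2 fold change was 0.13, with a wider 95% interval of -0.67 to 0.92. Changes of Isg15 within that wider interval remain compatible with these few reads, and the smallest change that could be called was not computed.

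The 22 members under the filter included the classical markers of an interferon response. Rsad2, which encodes viperin, had 7, 1 and 7 reads in siNC and 10 reads in each siSetdb1 library. The dynamin-like GTPase genes Mx1 and Mx2 had at most 5 and 7 reads in any library, the DNA and RNA sensor gene Zbp1 at most 4, the ubiquitin ligase gene Herc6 at most 26, and Ifi44 a single read in each of 2 libraries. Summed over the 22 genes there were 231, 204 and 293 reads in siNC against 166, 162 and 154 in siSetdb1, at most 0.00171% of a library. These sums did not overlap between the groups. In bulk RNA, fewer cells with a transcript and less of it per cell cannot be told apart.

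**Figure D3:**
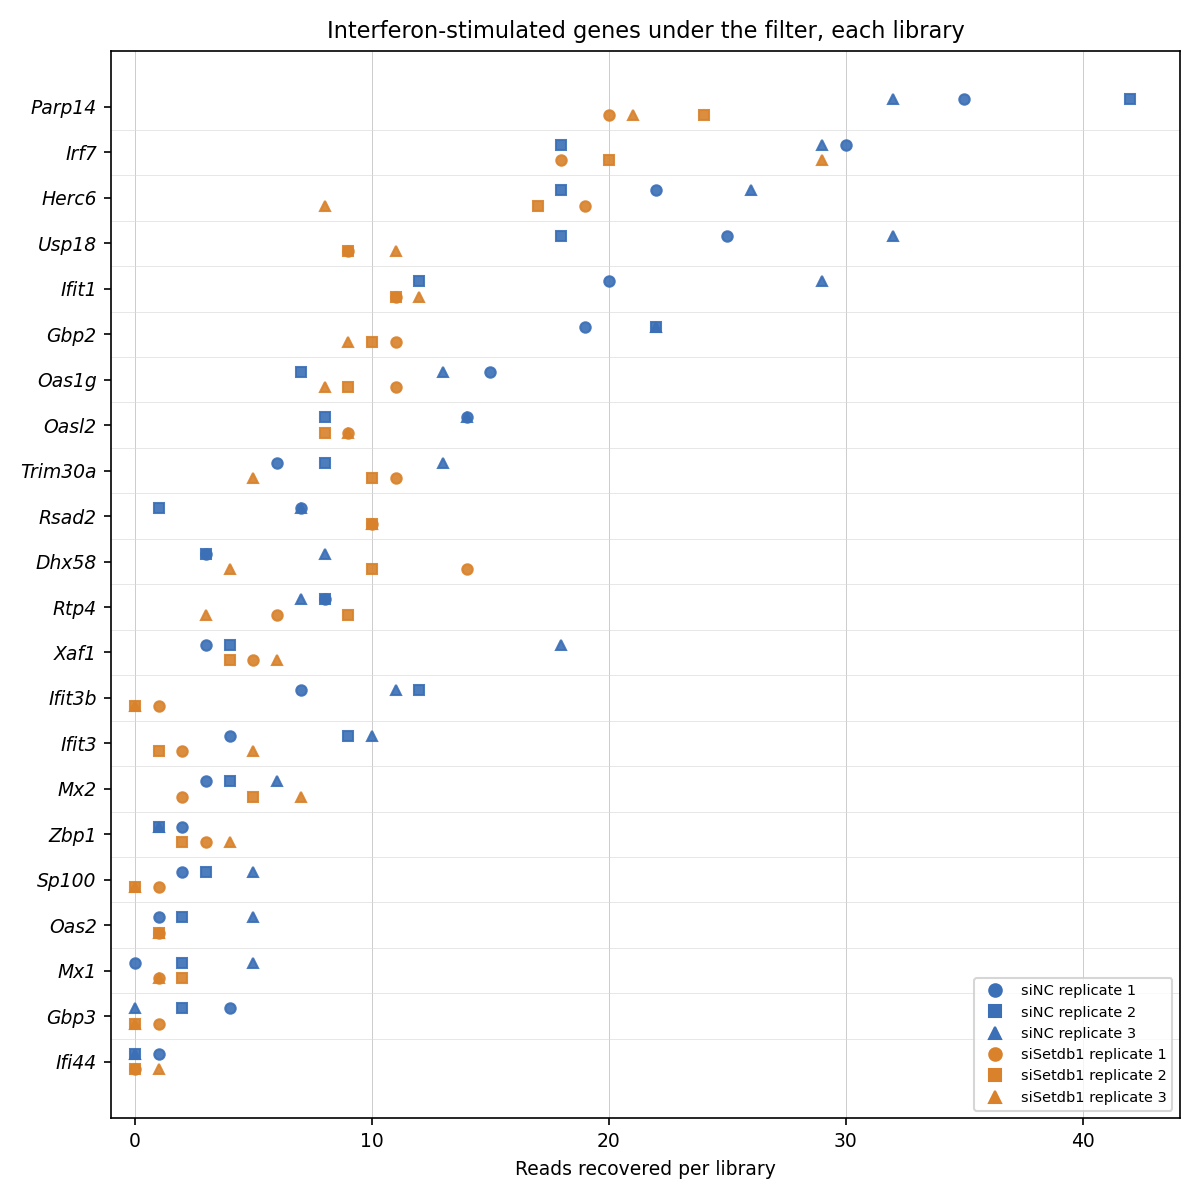
Reads recovered per library for the 22 members under the filter; blue points are siNC, orange points siSetdb1, and the shape gives the replicate number. No member exceeds 42 reads in a library, and the siSetdb1 points of Parp14, Usp18, Gbp2 and Ifit3b lie to the left of the siNC points.

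Several of these low genes had fewer reads in siSetdb1. In FPKM the groups did not overlap for 7 of the 22 with siSetdb1 lower and for 1, Rsad2, with siSetdb1 higher, where 6.04% and 4.07% of all genes under the filter were so placed. Many genes under the filter have almost no reads, and among the 3600 of them with a mean of at least 0.1 FPKM the shares were 10.7% lower and 7.67% higher, beside 5 and 1 of 13 members. Usp18, the protease that removes ISG15 and damps receptor signalling, had 25, 18 and 32 reads in siNC and 9, 9 and 11 in siSetdb1. The guanylate-binding GTPase gene Gbp2 had 19, 22 and 22 reads against 11, 10 and 9. Parp14, a mono-ADP-ribosyltransferase gene, had 35, 42 and 32 reads against 20, 24 and 21. In each of these 3 genes every siSetdb1 library lay below every siNC library. The other 4 genes lower in FPKM were Ifit1, Ifit3b, Oas2 and Sp100, a nuclear body component with 2, 3 and 5 reads against 1, 0 and 0. Ifit1 and Oas2 (1, 2 and 5 reads against 1, 1 and 1) tie in reads between the groups and were apart in FPKM only through the library totals. Among the genes whose groups overlapped, Dhx58, which encodes the RNA helicase LGP2, had 3, 3 and 8 reads in siNC against 14, 10 and 4 in siSetdb1. Gbp3 had at most 4 reads, the chaperone gene Rtp4 at most 9, the ubiquitin ligase relative Trim30a at most 13, Oas1g at most 15 and the apoptosis factor Xaf1 at most 18.

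A fit of limma-voom to all genes with at least 5 reads in 3 or more libraries, added after the data were seen, tested 34 members. Of these, 7 fell and 1 rose, 20.6% and 2.94%, where 9.19% and 7.53% of the 14851 genes in that fit did so, 16.7% in all. Beside Ifit2, Lgals3bp, Bst2, Stat2 and the rise of Oasl1, it called Usp18 (log2 fold change -1.31, adjusted p = 0.0224), Gbp2 (-1.06, adjusted p = 0.0321) and Ifit3b (-3.86, adjusted p = 0.00117). Ifit3b passed this filter through its siNC libraries alone, so that it had to differ. It is counted in the 20.6%, and nothing particular to the members is read from these shares. Parp14 did not pass (-0.75, adjusted p = 0.0536), nor did Rsad2 (1.24, adjusted p = 0.155). The call of Stat2 in this fit ended without siNC replicate 2 or 3 or siSetdb1 replicate 2 or 3 (adjusted p up to 0.127). Without siNC replicate 1 both Usp18 and Gbp2 were called (adjusted p = 0.0274 and 0.0322). Usp18 was not called without siNC replicate 3 or siSetdb1 replicate 1, 2 or 3 (0.0527, 0.0898, 0.0828 and 0.0559), and Gbp2 not without siNC replicates 2 and 3 or siSetdb1 replicates 1, 2 and 3 (0.0726, 0.0602, 0.0864, 0.0936 and 0.102).

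Interferon ligands were barely seen and receptors were present in both groups. Of 21 listed ligand genes, 4 had a row, Ifna13, Ifnab, Ifne and Ifnz, each with no more than 1 read in any library, and 17, Ifnb1 among them, were not analysed here. All 6 receptor genes were tested and none passed (limma-trend, with 2 at an unadjusted p under 0.05, and 0 called by limma-voom). Ifnar1 had 7.76 ± 0.16 FPKM in siNC and 7.30 ± 0.29 FPKM in siSetdb1, and Ifnlr1, of the receptor for type III interferon, had 2.90 ± 0.23 and 2.17 ± 0.44 FPKM.

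Of 15 tested genes of JAK-STAT signalling and its inhibitors, 2 rose, 1 fell and 12 did not pass, with a median log2 fold change of 0.01. Of all genes tested, 6.87% rose and 8.27% fell. With so few calls, nothing particular to these genes or to the regulatory factors below is read from the counts. The feedback inhibitor gene Socs1 rose from 1.25, 1.09 and 1.14 FPKM to 2.11, 2.46 and 3.43 FPKM, by 0.75 on the log2 scale (adjusted p = 0.0130, limma), a call that held without any 1 library. The phosphatase gene Ptpn11 rose from 24.8 ± 0.7 to 30.1 ± 0.3 FPKM and the SUMO ligase gene Pias4 fell from 10.7 ± 0.7 to 8.16 ± 0.44 FPKM. The call of Ptpn11 held only without siNC replicate 1 (adjusted p up to 0.0999 without another library), and that of Pias4 only without siNC replicate 1 or 3 (up to 0.0998). Of 7 tested interferon regulatory factor genes outside the list, Irf1 fell from 9.86 ± 0.90 to 6.85 ± 0.26 FPKM, a log2 fold change of -0.47 (adjusted p = 0.0113, and 0.0506 without siSetdb1 replicate 2), and 6 did not pass.

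Of 11 tested sensors and adaptors that lead to interferon, 1 rose, 2 fell and 8 did not pass, with a median of 0.01. These few calls stand beside 6.87% of all genes tested that rose and 8.27% that fell. Tmem173, the gene of the DNA-response adaptor STING, fell from 3.02, 2.49 and 2.46 FPKM to 1.08, 1.05 and 1.27 FPKM, a log2 fold change of -0.78 (adjusted p = 0.00368, limma), also without any 1 library. The kinase gene Ikbke fell from 7.42 ± 1.00 to 4.87 ± 0.07 FPKM (adjusted p = 0.0151), but leaving out siSetdb1 replicate 1, 2 or 3 ended the call (0.0631, 0.0569 and 0.05). Ifi204, of the family of DNA sensors, rose from 5.11 ± 1.21 to 7.68 ± 0.46 FPKM (adjusted p = 0.0470), with 3.83 FPKM in siNC replicate 1. Its call ended when siNC replicate 3 (0.0811) or siSetdb1 replicate 1, 2 or 3 (0.150, 0.127 and 0.0931) was left out. Ddx58, the gene of the RNA sensor RIG-I, had 3.90 ± 0.21 and 4.12 ± 0.51 FPKM, and Ifih1, the gene of MDA5, had 13, 15 and 16 reads against 8, 9 and 5.

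**Figure D4:**
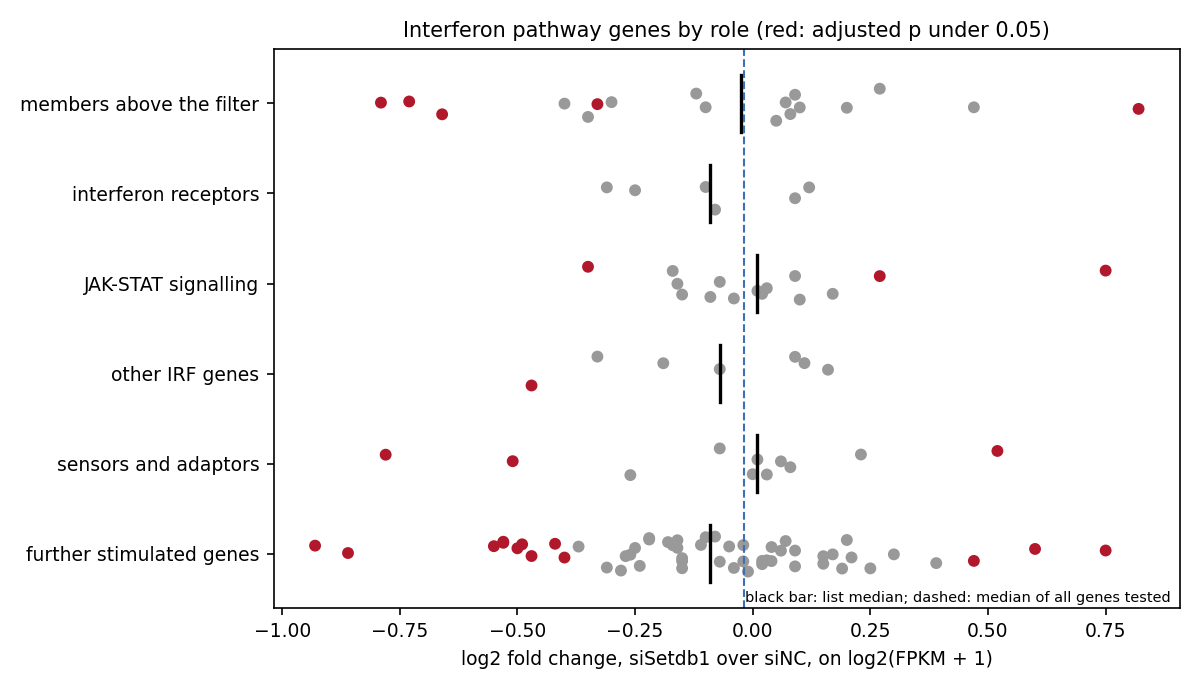
Log2 fold change of siSetdb1 over siNC on log2(FPKM + 1) for tested genes of the interferon pathway by role; each point is a gene, red where the adjusted p is under 0.05, black bars are list medians and the dashed line is the median of all genes tested. Some genes are in more than 1 list, the list medians run from -0.09 to 0.01, and red points lie on both sides of 0 among the members, JAK-STAT genes, sensors and further stimulated genes.

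A further list of 117 interferon-stimulated genes outside the 41 had 106 genes with a row. Of the 56 tested, 3 rose, 10 fell and 43 did not pass, where 6.87% of all genes tested rose and 8.27% fell. By limma-voom on genes with at least 5 reads, 3 were called higher and 15 lower of 77. In that fit 7.53% of all 14851 genes were called higher and 9.19% lower. The lower calls include Oas1e, which passed the filter of 5 reads through its siNC libraries alone. The list had a median log2 fold change of -0.09, and its calls by limma-trend include Socs1, Irf1 and Ifitm2, whose call (adjusted p = 0.0453) held only without siSetdb1 replicate 3 (up to 0.145 without another library). Oas1c fell from 3.27, 3.01 and 2.78 FPKM to 1.32, 1.10 and 0.933 FPKM, a log2 fold change of -0.93 (adjusted p = 0.00228, limma). The chemokine gene Cxcl10 fell from 2.67, 1.81 and 2.07 FPKM to 0.823, 0.884 and 0.548 FPKM (-0.86, adjusted p = 0.00689), and the scramblase gene Plscr1 from 109.9 ± 9.6 to 75.6 ± 4.1 FPKM (-0.53, adjusted p = 0.00815). In all 3 genes every siSetdb1 library lay below every siNC library. Trim26, a ubiquitin ligase gene, and Tdrd7, a factor that restrains virus-induced autophagy, rose, Trim26 from 9.83 ± 0.32 to 15.5 ± 0.3 FPKM and Tdrd7 from 7.80 ± 0.32 to 11.2 ± 0.2 FPKM (adjusted p = 0.00209 and 0.00521). These 5 calls held without any 1 library. Samhd1, a nucleotide hydrolase gene, fell from 6.17 ± 0.27 to 4.11 ± 0.44 FPKM (adjusted p = 0.0113, and 0.0536 without siSetdb1 replicate 1).

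The calls of Ly6e, Ube2l6, Psme1 and Tapbp, which were lower in siSetdb1, each ended without several single libraries. Ly6e, a surface protein that blocks coronavirus entry, had 278.8 ± 38.9 FPKM in siNC and 210.0 ± 5.5 FPKM in siSetdb1 (adjusted p = 0.0388, and up to 0.124 without siNC replicate 2 or any 1 siSetdb1 library). Ube2l6, the conjugating enzyme for ISG15, had 2.09 ± 0.43 and 1.17 ± 0.16 FPKM (adjusted p = 0.0344, and up to 0.120 without siNC replicate 1, siNC replicate 3 or 1 of the siSetdb1 libraries). The proteasome activator gene Psme1 had 23.3 ± 3.6 and 17.0 ± 0.1 FPKM and the peptide-loading gene Tapbp had 13.8 ± 2.5 and 9.04 ± 1.07 FPKM (adjusted p = 0.0365 and 0.0343). Psme1 was not called without siNC replicate 2 or any 1 siSetdb1 library (up to 0.119) and Tapbp not without siNC replicate 3 or any 1 siSetdb1 library (up to 0.114).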

How the data were processed

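RNA of 6 AML12 samples was sequenced in single-end reads of 50 bases, per the labels' protocols, which name no step that marks strand. The submitters' processing notes name RSEM 1.2.12, Bowtie2 2.2.5, DESeq2 1.4.5, HISAT2 2.0.4 and build mm10, without roles. The deposited table names no unit. Its values behave as FPKM made by the authors: with summed exon lengths of GENCODE M21, 98.81% of 25372 genes with a length gave whole reads within 0.01. For Isg15 the smallest whole set of reads is given. Genes with at least 0.5 FPKM in 3 libraries were tested with limma 3.58.1 (R 4.3.3, trend and robust prior) on log2(FPKM + 1) with group as the only term, checked on simulated reads. Counting intervals are exact at 95% and cover counting error only. The members, gene lists and tests were chosen with earlier results of these data known. Members were named in full where called, among the 12 most abundant, or not overlapping with a mean of at least 0.5 FPKM; of each pathway list, called genes were named, up to 12 by smallest p. Alternatives were a pseudocount of 0.1, no filter, median-ratio scaling, limma-voom, another variance trend, GC and length trends removed, a replicate block and each library left out. Replicate numbers are used to name samples, and the main fit assumes no pairing by number.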

Additional observations from a re-analysis of the deposited data

How the results depend on the processing

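Over the 18 tested members and 20 alternatives, 311 of 360 log2 fold changes kept their direction and their side of the threshold, 31 called values fell short of it, 9 passed it, and 9 changed sign. Oasl1 and Ifit2 were called under all 20. Of the members, 5 were called (1 higher, 4 lower): without a filter on low values 3 (2 lower), by limma-voom on genes with at least 5 reads 8 (7 lower), and with GC and length trends removed 2 higher. The replicate block left 3 members (2 lower) and 1015 genes. Deviations of same-numbered samples from their group means correlated at -0.157, 0.167 and -0.172, and those of other pairs at -0.204 to 0.283. With 3 libraries in each group, these values cannot show whether same-numbered samples shared a culture or a batch. Leaving out 1 library gave 2 to 6 members, 1 to 2 higher and 1 to 4 lower, and 642 to 2139 of all genes in place of 1945 (890 without the filter). By limma-voom on genes with at least 5 reads it gave 3 members (2 lower) without siNC replicate 3 or siSetdb1 replicate 2, and 10 (2 higher, 8 lower) and 2983 genes without siNC replicate 1. Without siSetdb1 replicate 1 or 2 that fit called 1042 or 1135 genes. Signs turned in uncalled genes. Isg15 ran from -0.04 to 0.18 with 1 library left out, and by limma-voom was -0.10 and -0.06 without siNC replicate 3 and siSetdb1 replicate 2. Oas1a ran from -0.20 to 0.09, was 0.01 with GC and length trends removed, and by limma-voom 0.11 without siNC replicate 1. Oas3 ran from -0.01 to 0.14, and by limma-voom was -0.01 without siSetdb1 replicate 1. The cause was not tested. With no more than 42 reads in a library, the 22 members under the filter can show only large differences.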

Other observations

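Within the Oas gene cluster of chromosome 5, the neighbouring genes Oas1e, Oas1c, Oas1b and Oas1f (120786226 to 120857986) had fewer reads in every siSetdb1 library than in any siNC library, a pattern noticed after the values were seen. In FPKM, 21.6% of all genes tested and 6.04% of genes under the filter were lower in siSetdb1 without overlap. Oas1c and Oas1b were tested, and Oas1e and Oas1f lay under the filter. A part of their position in this pattern was not tested. Sequence shared by Oas1e, Oas1c and Oas1f with other genes of the family was not measured. How reads of these genes were assigned is therefore uncertain. Oas1c had 132, 126 and 115 reads in siNC against 55, 45 and 40 in siSetdb1 (limma-voom log2 fold change -1.44, adjusted p = 0.000504). Oas1b, annotated as a polymorphic pseudogene, had 27, 25 and 44 reads against 21, 12 and 15 (-0.99, adjusted p = 0.0587). Oas1e had 13, 9 and 9 reads against 2, 0 and 3 and passed the filter of 5 reads through its siNC libraries alone, so that it had to differ. Oas1f had 1, 2 and 2 reads against 0, 0 and 0. Of the other genes of the cluster, Oas3 had 403 reads summed over siNC and 454 over siSetdb1 (adjusted p = 0.613), Oas1g had 35 and 28 (adjusted p = 0.672), Oas1a had 501 and 460 (adjusted p = 0.706), and Oas2 had 8 and 3. Oas1d, beyond Oas1a, had 4, 5 and 4 reads against 3, 0 and 3, again without overlap.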
